A study of Mus musculus with 12 samples.

Results

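Enzymes that break down amino acids were followed in mouse liver as a set of 44 genes, of 48795 genes in the deposited table. They were chosen by symbol, with earlier results of these data known. They cover the breakdown of aromatic, branched-chain, histidine, proline, lysine and sulfur amino acids and of glycine, together with the transaminases and dehydratases. All 44 were found in the table and all 44 of 44 passed the filter on low counts, as did 13812 genes in all. The RNA came from whole livers of 12 female mice aged 4 months, kept on normal chow, that were age-matched littermates and either wild type for neurotensin (labelled NTS WT, Nts+/+) or whole-body knockouts (labelled NTS KO, Nts-/-). Neurotensin is a peptide hormone released by the gut. Each genotype was fed ad libitum or fasted for 22 h, which gave 4 groups of 3 mice: Nts+/+ fed (mice 254, 257 and 323), Nts+/+ fasted (265, 282 and 322), Nts-/- fed (277, 303 and 319) and Nts-/- fasted (284, 290 and 295). The design sets 2 comparisons: what 22 h without food did to these enzymes in each genotype, and whether the genotype label changed their level or that response. Mouse values below are listed in the order in which the mice of each group are named here.

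The liver is the main site where most amino acids are dismantled. For some of them, a transaminase or dehydratase first removes the amino group, while other routes start with a different step. Amino groups can pass through glutamate and aspartate to the urea cycle. The carbon skeleton is cut down to pyruvate, acetyl-CoA or intermediates of the citric acid cycle. In a fasted animal, amino acids released from muscle reach the liver, where their carbon can be used to make glucose and ketone bodies. Branched-chain amino acids are an exception, since liver has little of the transaminase that starts their breakdown and works mainly on the keto acids that other tissues send to it.

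Libraries held from 21999647 up to 45273069 counts, and levels are given in TMM-scaled CPM, which are counts relative to the size of the library. The 44 genes together held between 1.69% and 2.49% of all counts of a mouse and the lowest value of any of them in any mouse was 110 counts. Counts on the Nts gene were found only in libraries labelled as its knockouts. All 6 libraries labelled Nts+/+ had 0 counts on it, whereas those labelled Nts-/- showed 46, 40 and 15 in the fed mice, and 12, 4 and 18 in the fasted mice. Whether the labels are correct was not tested, and every direction given for genotype is that of the libraries as labelled. The hepatocyte markers in the table (7 of 8 listed) summed to between 113385 and 148394 CPM in every mouse. Of 5 kidney markers, 4 were at 0 in all 12 mice and the sum never passed 0.0271 CPM. The 5 adipocyte markers never summed to more than 0.260 CPM.

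Across the set, the level per kilobase of transcript (mean CPM of the 12 mice divided by the length of the Ensembl canonical transcript) ran over a wide range. Hpd, the 4-hydroxyphenylpyruvate dioxygenase of tyrosine breakdown, had the highest level per kilobase at 1649, followed by the ornithine aminotransferase Oat at 769 and the tyrosine aminotransferase Tat at 618. Tdo2 (389.8) and Hgd (385) came next and lay close together. The tyrosine enzymes Tat, Hpd, Hgd and Fah thus all stood among the 6 highest of the 44. At the other end, Acmsd was at 5.14 and Bckdk at 3.76 CPM per kilobase. Bckdk encodes the kinase that switches off the branched-chain keto acid dehydrogenase.

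Fasting raised some of these enzymes and lowered others. In Nts+/+ livers 10 of the 44 passed an adjusted p of 0.05 in the quasi-likelihood test of edgeR (Benjamini-Hochberg over all 13812 genes), with 7 higher and 3 lower after fasting. These are 15.9% and 6.82% of the set, and among all tested genes 8.91% passed as higher and 9.19% as lower. In Nts-/- livers 11 passed, with 6 higher (13.6% of the set, background 7.70%) and 5 lower (11.4%, background 9.14%). Every SE below is that of the fit, with 3 mice in each group. There were 7 genes that passed in both genotypes, and all 7 had the same direction in both: Tdo2, Oat, Got1, Gpt2 and Aass rose, whereas Haao and Acmsd fell. Those that passed in Nts+/+ livers and not in Nts-/- livers were Amdhd1, Bckdk and Gldc, and the reverse held for Afmid, Glud1, Cth and Csad. The test of the difference between the genotypes passed for none of the 44 (lowest adjusted p = 0.897), so a response seen in a single genotype is not shown to be particular to it.

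When the response was averaged over the genotypes, which uses all 12 mice, 20 of the 44 passed. Of these, 11 rose (25.0% of the set, background 16.0%) and 9 fell (20.5%, background 16.8%). The median log2 fold change of the 44 was 0.029 in Nts+/+ livers, 0.26 in Nts-/- livers and 0.17 for the mean of both, beside -0.0071 over all tested genes for the mean. Groups of 3 mice did not overlap between fed and fasted for 10 members that were higher and 7 that were lower in Nts+/+ livers, where 18.1% and 17.9% of all genes separated in this way. In Nts-/- livers 18 were higher without overlap and 8 lower (background 17.1% and 18.1%). Without mouse 277 or without mouse 290, the number that passed in Nts-/- livers was 4 instead of 11, and without 303 or without 295 it was 7. Tdo2, Oat, Haao and Acmsd passed in both genotypes whichever mouse was left out. Of the 20, Gpt, Bckdha and Aldh4a1 lost their call in the mean of both genotypes when certain mice were left out.

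**Figure D1:**
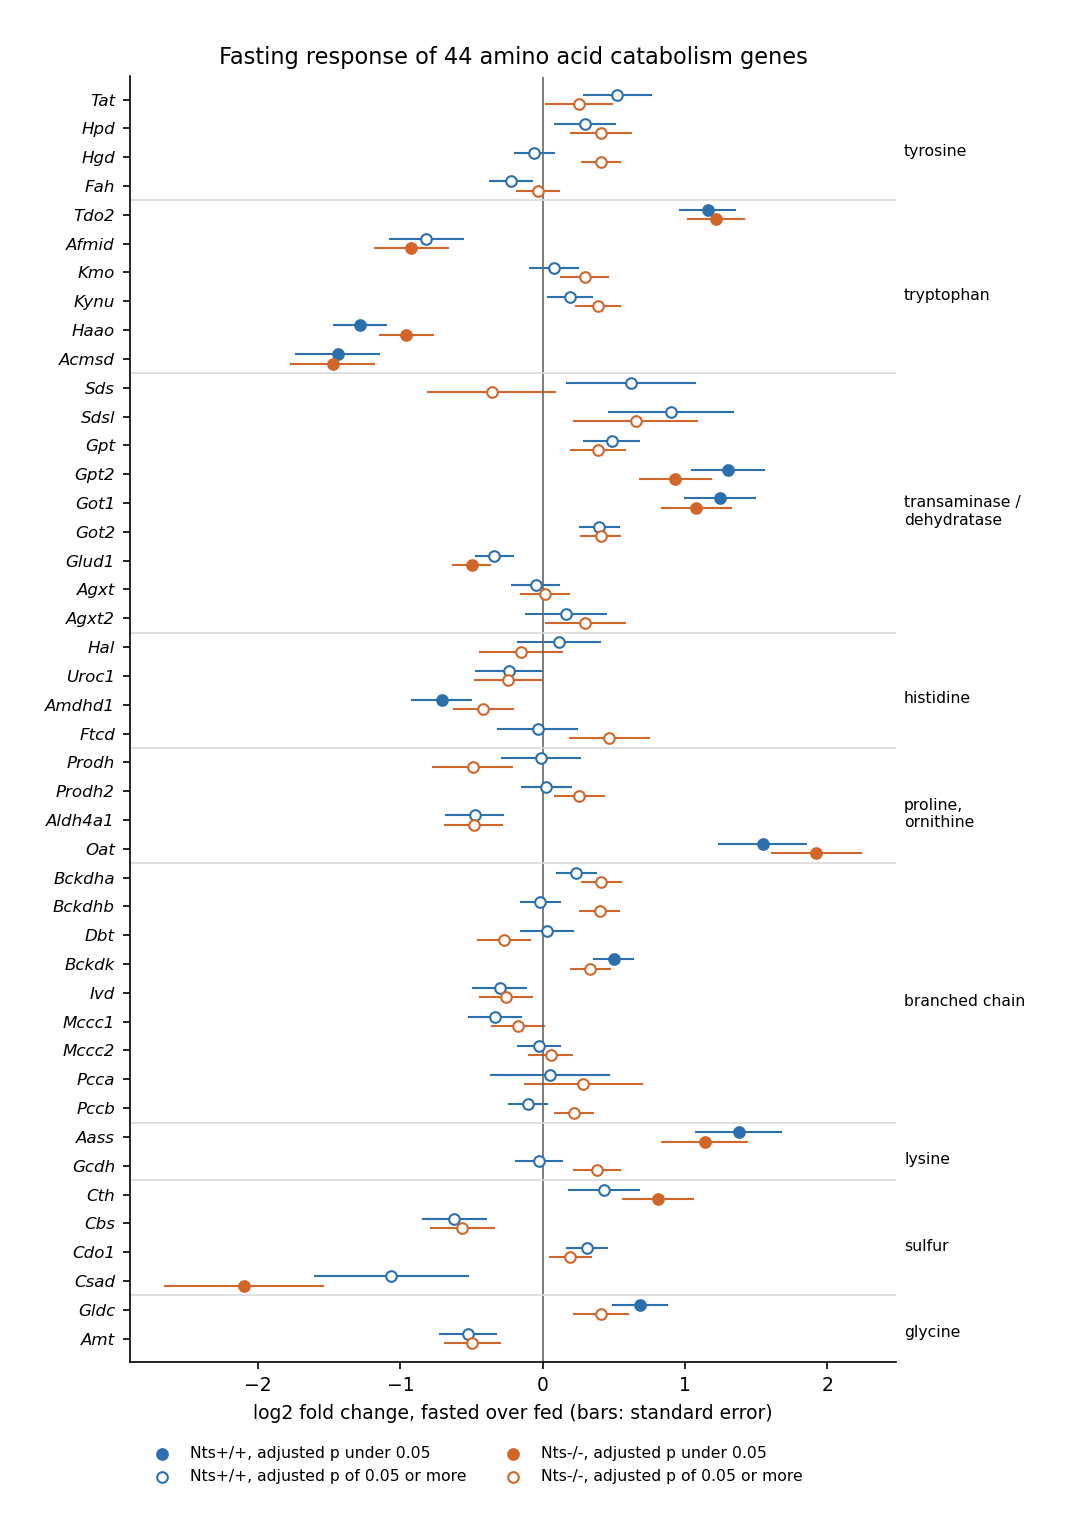
Log2 fold change of fasted over fed livers (horizontal axis) for each of the 44 genes, ordered by role, in Nts+/+ (blue) and Nts-/- mice (orange), with standard errors from edgeR and filled points for an adjusted p under 0.05. Oat has the highest point in both genotypes (1.54 and 1.92), the lowest are Acmsd in Nts+/+ (-1.44) and Csad in Nts-/- livers (-2.10), and none of the points of the 4 tyrosine genes is filled.

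Marker genes of other cells and of liver zones also changed with feeding, in both directions within each zone list. In bulk RNA, fewer cells of a type, less RNA per cell and regulation of the marker gene itself cannot be told apart. The 7 hepatocyte markers also included 3 that rose and 2 that fell with fasting in the mean of both genotypes. Of 6 stellate cell markers, 5 fell with fasting in the mean of both genotypes, and their sum went from 70.4 to 86.6 CPM down to 50.2 to 62.0 CPM in Nts+/+ livers, and from 81.0 to 111 down to 44.2 to 57.0 CPM in Nts-/- livers. Of 8 genes that mark hepatocytes around the central vein, 3 rose and 1 fell, and their sum was 4236 to 8857 CPM in fed and 11302 to 14409 CPM in fasted mice. Of 6 periportal genes, 1 rose and 3 fell, while their summed level did not fall and overlapped between fed and fasted mice. It was 4863 to 7064 CPM in fed and 5510 to 9160 CPM in fasted Nts+/+ livers. In Nts-/- livers it was 5733 to 7085 and 6700 to 8289 CPM. Of 6 endothelial markers 1 rose and 3 fell, and of 6 intestinal genes Fabp2 and Lgals4 rose, with a summed level of 43.1 to 96.8 CPM in fed and 112 to 212 CPM in fasted mice and the defining gene Sis at 0 in all. The Kupffer cell, cholangiocyte and erythroid lists each had 1 gene that fell (Clec4f, Spp1 and Alas2), and the pancreatic list had Cela1. None passed in the lymphocyte and muscle lists. Only 2 of 6 intestinal, 1 of 6 pancreatic, 1 of 5 muscle and 4 of 5 cholangiocyte genes passed the count filter and were tested. The part of these shifts in the responses of the enzymes was not tested.

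Tryptophan breakdown through kynurenine showed opposite changes at its start and its end. Tdo2 (ENSMUSG00000028011, chromosome 3 from 81957090 to 81976202 in GRCm38) encodes tryptophan 2,3-dioxygenase, which opens the tryptophan ring and commits it to this route. Tdo2 was at 888, 972 and 774 CPM in fed and 2520.5, 1785 and 1575 CPM in fasted Nts+/+ livers, and at 659, 775 and 1042 CPM in fed and 2044, 1922 and 1791 CPM in fasted Nts-/- livers. Every fasted mouse lay above every fed mouse in both genotypes. The log2 fold change was 1.16 ± 0.20 (SE, adjusted p = 0.00195) in Nts+/+ and 1.22 ± 0.20 (SE, adjusted p = 0.00132) in Nts-/- livers, a rise of 2.23-fold and 2.33-fold.

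Further along the route, Haao (ENSMUSG00000000673, chromosome 17 from 83831356 to 83846790) encodes 3-hydroxyanthranilate dioxygenase, which makes the precursor of quinolinate and so of NAD. Haao was at 449.6, 436 and 385 CPM in fed and 229, 151 and 142 CPM in fasted Nts+/+ livers, and at 387, 452 and 406 CPM in fed and 189, 186 and 266 CPM in fasted Nts-/- livers. Fed and fasted mice did not overlap in either genotype, here with the fasted mice below. Its log2 fold change was -1.28 ± 0.19 (SE, adjusted p = 0.000755) in Nts+/+ and -0.96 ± 0.19 (SE, adjusted p = 0.00454) in Nts-/- livers. Acmsd (ENSMUSG00000026348, chromosome 1 from 127729413 to 127767978) encodes the decarboxylase that diverts the product of Haao away from NAD and towards acetyl-CoA. Acmsd was at 15.3, 21.0 and 23.9 CPM in fed and 9.92, 6.74 and 5.64 CPM in fasted Nts+/+ livers, and at 17.9, 15.7 and 29.2 CPM in fed and 5.04, 9.31 and 8.17 CPM in fasted Nts-/- livers, so that it was low in all mice and lower in each fasted mouse than in any fed mouse. Its log2 fold change was -1.44 ± 0.30 (SE, adjusted p = 0.00729) in Nts+/+ and -1.47 ± 0.30 (SE, adjusted p = 0.00635) in Nts-/- livers.

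The steps between them moved less evenly. Afmid, the formamidase that acts directly after Tdo2, was at 200.4, 158 and 169 CPM in fed and 147, 82.3 and 70.1 CPM in fasted Nts+/+ livers, and at 155, 220.5 and 142 CPM in fed and 109, 72.0 and 91.7 CPM in fasted Nts-/- livers. The fasted mice were again below the fed mice in both genotypes, with a log2 fold change of -0.82 ± 0.26 (SE, adjusted p = 0.0505) in Nts+/+ and -0.92 ± 0.27 (SE, adjusted p = 0.0324) in Nts-/- livers. The call in Nts-/- livers was lost without mouse 277, 303, 290 or 295 (adjusted p up to 0.123). Afmid overlaps Tk1, a thymidine kinase gene whose counts were 12.5% of those of Afmid and whose own log2 fold change was -1.89. Whether the counting used strand is not given in the sources used here, so reads of the overlap cannot be assigned with certainty. Kmo and Kynu, the monooxygenase and the hydrolase in the middle of the route, did not pass in the mean of both genotypes (0.19 ± 0.12, adjusted p = 0.262 and 0.29 ± 0.11, adjusted p = 0.0656, respectively). Kmo overlaps Fh1, whose counts were 92.0% of those of Kmo and whose own log2 fold change in that mean was 1.06 ± 0.11 (adjusted p = 1.28e-05).

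Within a mouse, the counts of Tdo2 exceeded those of Haao 1.70-fold to 2.57-fold in the 6 fed mice and 6.74-fold to 11.8-fold in the 6 fasted mice. This ratio was chosen after its values were seen and is given without a test. It needs no scaling between libraries, and it was 11.0, 11.8 and 11.1 in the fasted Nts+/+ mice, which differ widely in the level of both genes. Other tryptophan genes outside the set went both ways too, and were also picked after their values were seen. Aadat, a kynurenine aminotransferase, rose by 0.82 ± 0.12 (adjusted p = 0.000248) on the log2 scale in the mean of both genotypes, while the log2 fold change was -1.52 ± 0.17 (adjusted p = 2.94e-05) for Kyat1, an enzyme of the same reaction, -0.75 ± 0.11 (adjusted p = 0.000260) for Qprt, which uses quinolinate for NAD, and -1.12 ± 0.16 (adjusted p = 0.000191) for Ido2, which catalyses the same first step as Tdo2.

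**Figure D2:**
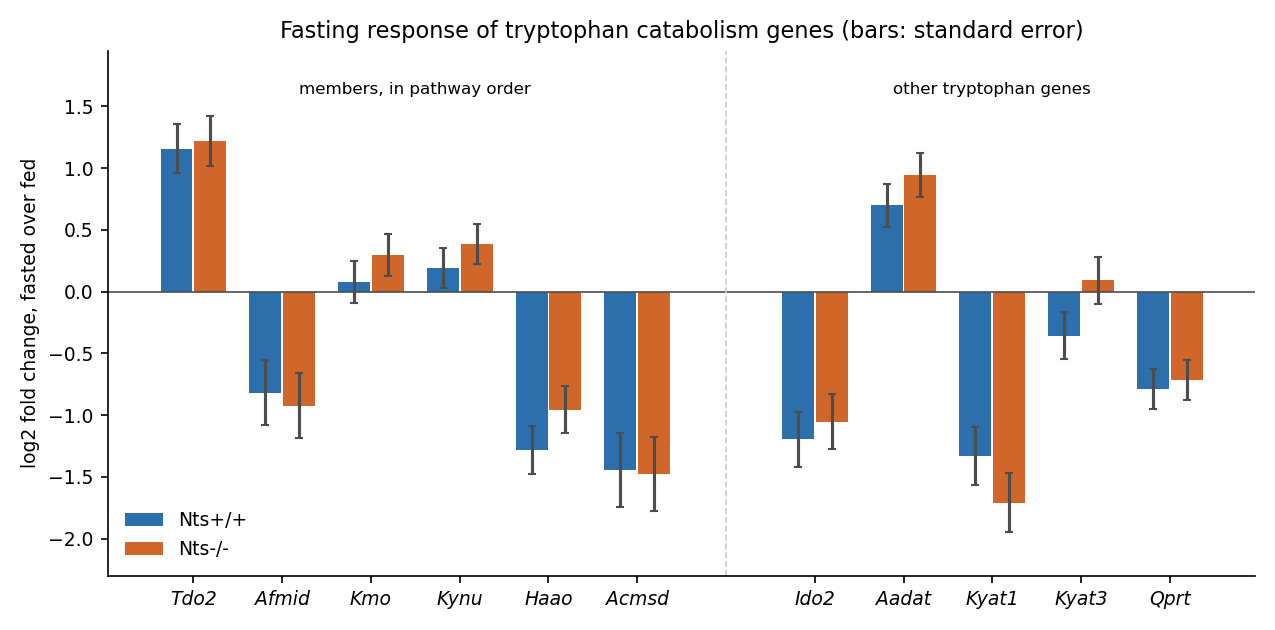
Log2 fold change of fasted over fed livers (vertical axis) for the 6 tryptophan genes of the set in pathway order and for 5 further genes of tryptophan breakdown, in Nts+/+ (blue) and Nts-/- mice (orange), with standard errors. Tdo2 and Aadat stand well above 0 in both genotypes and Kmo and Kynu a little above it, Kyat3 lies on either side of 0, and Afmid, Haao, Acmsd, Ido2, Kyat1 and Qprt below it.

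The sequences just before the start sites of Tdo2 and Haao are shown because these genes moved in opposite directions along 1 route. They are the 250 bases upstream of the RefSeq start in GRCm38.p6, 5′ to 3′ on the strand of the gene, at chr3:81975729-81975978 on the minus strand and chr17:83846791-83847040 on the minus strand. The RefSeq start of Tdo2 lies inside the gene as the table bounds it, and that of Haao coincides with a boundary of the gene there. Capitals mark every match on either strand to the nuclear receptor half-site AGGTCA (read as TGACCT on the other strand).
Tdo2: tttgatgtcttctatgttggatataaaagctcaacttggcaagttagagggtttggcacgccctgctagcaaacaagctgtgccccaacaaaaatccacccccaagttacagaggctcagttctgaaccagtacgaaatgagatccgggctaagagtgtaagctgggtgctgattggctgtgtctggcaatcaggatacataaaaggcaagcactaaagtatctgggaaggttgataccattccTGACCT
Haao: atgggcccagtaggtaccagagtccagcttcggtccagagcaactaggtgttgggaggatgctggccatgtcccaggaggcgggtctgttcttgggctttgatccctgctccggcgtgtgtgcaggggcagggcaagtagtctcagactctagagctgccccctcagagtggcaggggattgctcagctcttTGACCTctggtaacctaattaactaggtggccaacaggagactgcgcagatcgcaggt
Both held AGGTCA on the reverse strand, at 6 to 1 bases before the start in Tdo2 and 58 to 53 in Haao. The same letters thus stood before a gene that rose and before a gene that fell. Of the 44 members, 37 had a RefSeq promoter here. Of these 37, 12 (32.4%) held AGGTCA in this window, against 14.0% of all 32851 promoters. Members were counted with 1 promoter each, whereas all promoters were not limited to 1 per gene or to genes tested here. The shares of members and of all promoters thus rest on unlike sets. Among members with a promoter that passed in the mean of both genotypes, 4 of 9 that rose (Tdo2, Got1, Got2 and Aass) and 3 of 9 that fell (Haao and Amt among them) held it. The CRE half-site TGACG was found in 4 of 37 (all promoters 17.8%), the forkhead sequence TGTTTAC in 0 of 37 (all promoters 3.17%) and the C/EBP sequence TTGCNNAA in 5 of 37 (all promoters 9.56%). A match describes the letters and does not show that a factor binds there.

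Among the enzymes that move amino groups, the cytosolic aspartate and the mitochondrial alanine transaminase rose most. Got1 was at 202, 204 and 218 CPM in fed and 650.1, 517 and 313 CPM in fasted Nts+/+ livers, and at 224, 297 and 269.6 CPM in fed and 535, 729.8 and 405 CPM in fasted Nts-/- livers. Gpt2 was at 275, 249 and 295 CPM in fed and 665, 807 and 548 CPM in fasted Nts+/+ livers, and at 343, 566 and 234 CPM in fed and 634, 809 and 737 CPM in fasted Nts-/- livers. For both genes fed and fasted mice did not overlap in either genotype, although Gpt2 in the fed mouse 303 came close to the lowest fasted value. The log2 fold change of Got1, the cytosolic aspartate transaminase, was 1.25 ± 0.25 (SE, adjusted p = 0.00512) in Nts+/+ and 1.08 ± 0.25 (SE, adjusted p = 0.0111) in Nts-/- livers. That of Gpt2, the mitochondrial alanine transaminase, was 1.30 ± 0.26 (SE, adjusted p = 0.00463) and 0.93 ± 0.26 (SE, adjusted p = 0.0252). In Nts-/- livers the call was lost without mouse 277 or 290 (adjusted p up to 0.0517) for Got1, and without mouse 277, 290 or 295 (adjusted p up to 0.0938) for Gpt2.

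Their partners in the other compartment rose less. Got2, the mitochondrial aspartate transaminase, was at 506, 487 and 437 CPM in fed and 731, 646 and 506 CPM in fasted Nts+/+ livers, and at 470.4, 485 and 462 CPM in fed and 594, 599 and 687 CPM in fasted Nts-/- livers. Gpt, the cytosolic alanine transaminase, was at 216, 207 and 193 CPM in fed and 390.0, 277 and 196 CPM in fasted Nts+/+ livers, and at 199.6, 250.5 and 259 CPM in fed and 309.8, 283 and 335 CPM in fasted Nts-/- livers. The log2 fold change in the mean of both genotypes was 0.40 ± 0.10 (SE, adjusted p = 0.00836) for Got2 and 0.44 ± 0.14 (SE, adjusted p = 0.0294) for Gpt, and neither passed in a single genotype. Mouse 322 lay at or just above the fed values in both. The counts of Got1 relative to Got2 were 0.398 to 0.613 in fed and 0.590 to 1.22 in fasted mice, and those of Gpt2 relative to Gpt were 0.902 to 2.26 and 1.71 to 2.91, so that both ratios overlapped between fed and fasted mice.

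Glud1 encodes glutamate dehydrogenase, which releases the amino group of glutamate as ammonium, and it went the other way. Glud1 was at 1145, 1335 and 1156 CPM in fed and 903, 936 and 1033 CPM in fasted Nts+/+ livers, and at 1267, 1160.0 and 1349 CPM in fed and 934, 778 and 963 CPM in fasted Nts-/- livers. All fasted mice were below all fed mice in both genotypes. This gave a log2 fold change of -0.34 ± 0.14 (SE, adjusted p = 0.101) in Nts+/+ and -0.50 ± 0.14 (SE, adjusted p = 0.0237) in Nts-/- livers, and -0.42 ± 0.097 (SE, adjusted p = 0.00470) in the mean of both. Leaving out 1 mouse kept the call in the mean of both (adjusted p up to 0.0173) and ended that in Nts-/- livers without mouse 277, 319, 284 or 290 (adjusted p up to 0.104).

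The serine dehydratases varied widely within groups. Sds, which turns serine and threonine into keto acids, was at 80.0, 87.2 and 71.4 CPM in fed and 202, 81.0 and 84.5 CPM in fasted Nts+/+ livers, and at 79.7, 89.3 and 213 CPM in fed and 65.2, 119.6 and 113 CPM in fasted Nts-/- livers. Its near neighbour Sdsl, a related gene 3715 bases away on chromosome 5, was at 7.46, 8.57 and 8.29 CPM in fed and 20.6, 13.6 and 11.4 CPM in fasted Nts+/+ livers, and at 6.30, 5.90 and 19.1 CPM in fed and 10.7, 21.1 and 17.1 CPM in fasted Nts-/- livers. In each of the 4 groups the same mouse had the highest value of both genes, and in the fed mouse 319 and the fasted mouse 265 both stood far above the rest of the group. The log2 fold change in the mean of both genotypes was 0.13 ± 0.32 (SE, adjusted p = 0.790) for Sds and 0.78 ± 0.31 (SE, adjusted p = 0.0819) for Sdsl. Sds overlaps Plbd2, whose counts were 71.4% of those of Sds and whose own log2 fold change in that mean was 0.48 ± 0.10 (adjusted p = 0.00272). The glyoxylate aminotransferases Agxt and Agxt2 did not pass either, with -0.017 ± 0.12 (SE, adjusted p = 0.931) and 0.23 ± 0.20 (SE, adjusted p = 0.413).

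**Figure D3:**
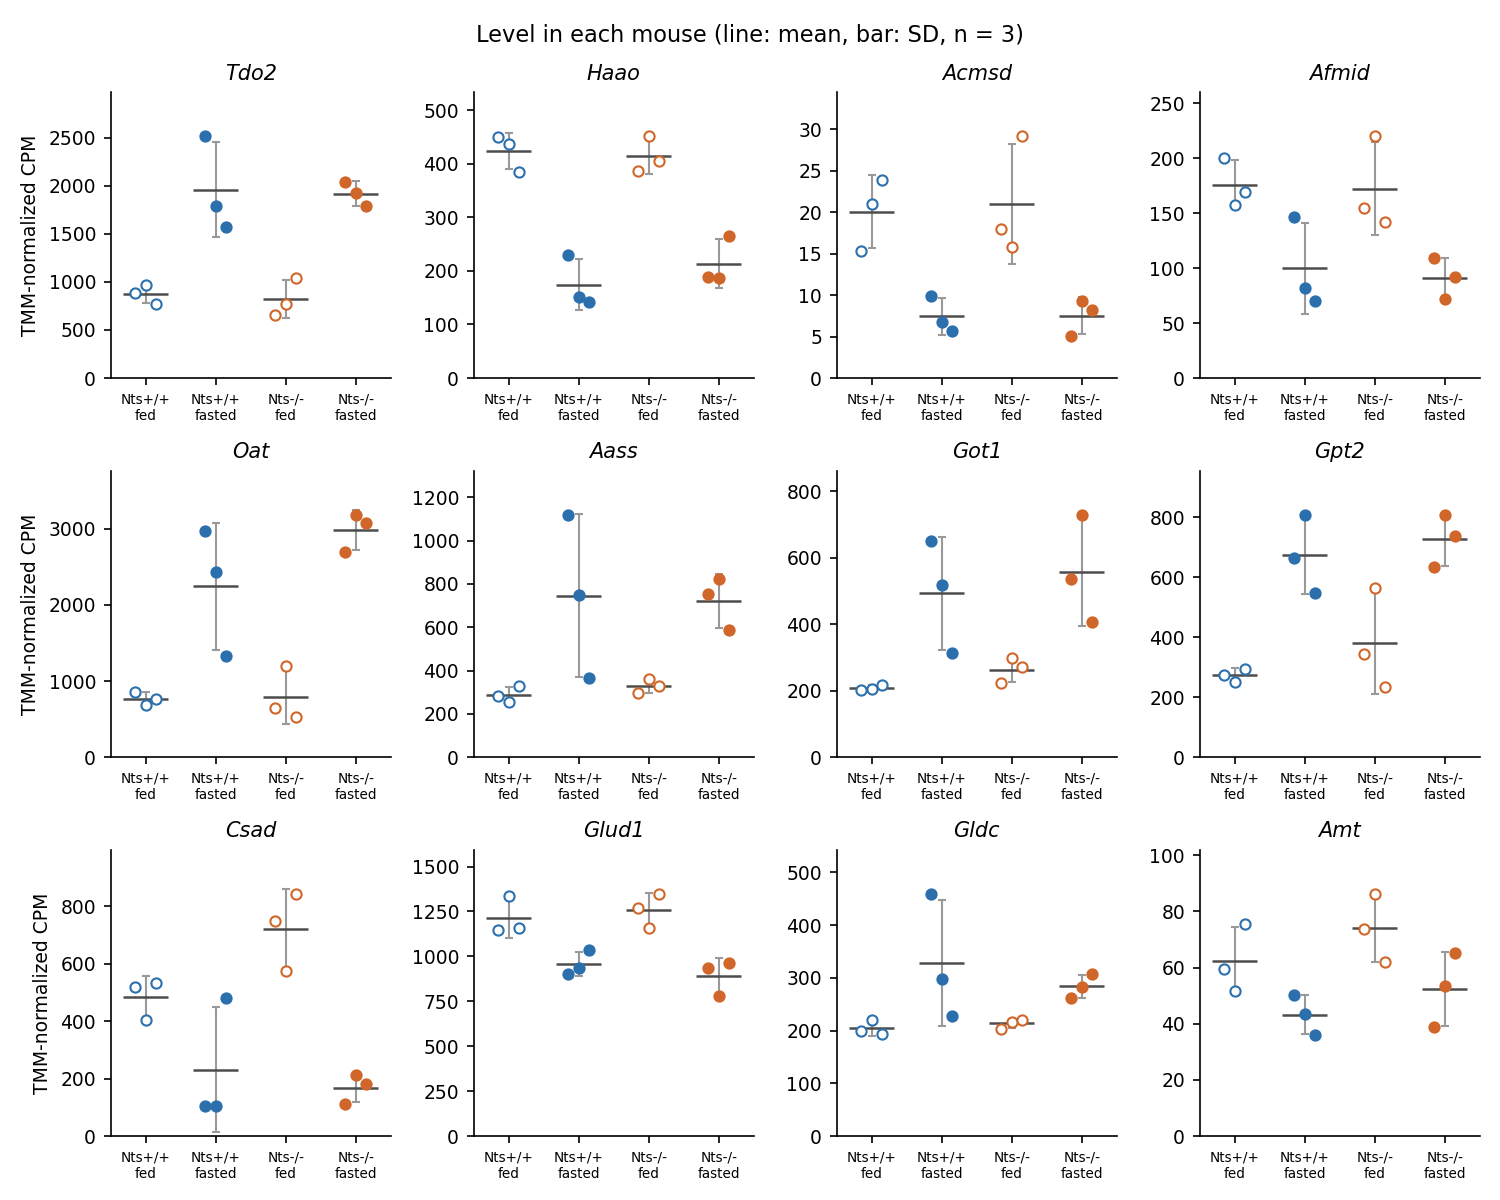
Level of 12 of the genes in each mouse (vertical axis, TMM-normalized CPM, from 0), in fed (open) and fasted (filled) Nts+/+ (blue) and Nts-/- livers (orange), with the group mean as a line and the SD as a bar (n = 3). Tdo2, Oat, Aass, Got1, Gpt2 and Gldc are higher and Haao, Acmsd, Afmid and Glud1 lower in every fasted mouse than in any fed mouse of the same genotype, whereas for Csad the fasted Nts+/+ mouse at 482 CPM lies within the fed range.

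Oat (ENSMUSG00000030934, chromosome 7 from 132557478 to 132576398) encodes ornithine aminotransferase, which links ornithine to proline and glutamate, and it had the largest rise of the 44 in the mean of both genotypes. Oat was at 856, 687 and 764 CPM in fed and 2975, 2428 and 1328 CPM in fasted Nts+/+ livers, and at 647, 1191 and 526 CPM in fed and 2690.5, 3187 and 3084 CPM in fasted Nts-/- livers. Fed and fasted mice did not overlap in either genotype, but the spread was wide, with mouse 322 the lowest of the fasted mice and mouse 303 the highest of the fed mice. On the log2 scale the fold change was 1.54 ± 0.31 (SE, adjusted p = 0.00605) in Nts+/+ and 1.92 ± 0.32 (SE, adjusted p = 0.00173) in Nts-/- livers, or 2.92-fold and 3.79-fold. None of the 4 sequences searched was found in the 250 bases before its start.

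Proline itself is oxidised by Prodh, and hydroxyproline by Prodh2, and Aldh4a1 acts next in both routes, yielding glutamate in that of proline. Aldh4a1 was at 475, 445 and 404 CPM in fed and 435, 279 and 236 CPM in fasted Nts+/+ livers, and at 447, 619 and 482 CPM in fed and 383, 318 and 405 CPM in fasted Nts-/- livers. The groups overlapped in Nts+/+ livers, where the fasted mouse 265 lay among the fed mice, and did not overlap in Nts-/- livers. Its log2 fold change was -0.48 ± 0.15 (SE, adjusted p = 0.0212) in the mean of both genotypes and did not pass in either alone. Prodh and Prodh2 did not pass (-0.25 ± 0.20, adjusted p = 0.368 and 0.14 ± 0.13, adjusted p = 0.420, respectively). Prodh overlaps Dgcr6, which had 23.5% of its counts and a log2 fold change of -0.18 ± 0.085 (adjusted p = 0.114). Among these 4 genes, therefore, Oat rose and Aldh4a1, which oxidises the product of Oat, fell. The call for Aldh4a1 was lost without mouse 254, 282, 303 or 290 (adjusted p up to 0.0613).

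Aass (ENSMUSG00000029695, chromosome 6 from 23072173 to 23132986) encodes the enzyme with both activities that begin lysine breakdown. Aass was at 281, 253 and 327 CPM in fed and 1120.5, 749 and 366 CPM in fasted Nts+/+ livers, and at 298, 359 and 326 CPM in fed and 756, 823 and 585 CPM in fasted Nts-/- livers. Every fasted mouse lay above every fed mouse of its genotype, with mouse 322 only just above. On the log2 scale the fold change was 1.38 ± 0.31 (SE, adjusted p = 0.00986) in Nts+/+ and 1.14 ± 0.30 (SE, adjusted p = 0.0243) in Nts-/- livers. The call in Nts-/- livers was lost without mouse 277, 303, 319, 284 or 290 (adjusted p up to 0.0915). Gcdh, the glutaryl-CoA dehydrogenase further down the route, did not pass, at -0.028 ± 0.17 (SE, adjusted p = 0.929) and 0.38 ± 0.17 (SE, adjusted p = 0.143). The 250 bases before the start of Aass (chr6:23132987-23133236 on the minus strand, GRCm38.p6) are shown because they held 3 of the 4 sequences searched. No other member with a promoter that passed in the mean of both genotypes held 3 of them. Capitals mark, from left to right, AGGTCA read on the reverse strand (127 to 122 bases before the start), TGACG (37 to 33) and TTGAGCAA (TTGCNNAA on the reverse strand, 22 to 15).
Aass: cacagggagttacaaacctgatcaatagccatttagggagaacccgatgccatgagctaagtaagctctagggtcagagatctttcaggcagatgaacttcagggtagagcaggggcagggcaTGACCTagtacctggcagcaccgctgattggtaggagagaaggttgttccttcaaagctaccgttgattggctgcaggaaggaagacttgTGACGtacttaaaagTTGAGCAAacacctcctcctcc
The 3 matches did not overlap one another.

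Of the 4 sulfur amino acid genes, Csad and Cbs fell and Cth rose in the mean of both genotypes. Csad (ENSMUSG00000023044, chromosome 15 from 102176998 to 102189043) encodes the decarboxylase of cysteine sulfinate that leads to taurine. Csad was at 519.6, 403 and 532 CPM in fed and 106, 106 and 482 CPM in fasted Nts+/+ livers, and at 747, 573 and 844 CPM in fed and 113, 212 and 180.4 CPM in fasted Nts-/- livers. In Nts-/- livers all fasted mice were far below all fed mice. In Nts+/+ livers mice 265 and 282 were as low, but mouse 322 was at a fed level. Its log2 fold change was -2.10 ± 0.56 (SE, adjusted p = 0.0310) in Nts-/- livers and -1.07 ± 0.54 (SE, adjusted p = 0.210) in Nts+/+ livers. Without mouse 322 the value in Nts+/+ livers was -2.19 (adjusted p = 0.000262). The call in Nts-/- livers was lost without any 1 of its 6 mice (adjusted p from 0.0565 to 0.102), whereas that in the mean of both genotypes (-1.58 ± 0.39, adjusted p = 0.0120) was kept (adjusted p up to 0.0307).

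Cbs and Cth carry homocysteine to cysteine in consecutive steps. Cbs, the cystathionine synthase, was at 619, 783 and 504 CPM in fed and 503, 369 and 367 CPM in fasted Nts+/+ livers, and at 580.1, 503 and 900.3 CPM in fed and 373, 495 and 471 CPM in fasted Nts-/- livers. Fasted mice were below fed mice in both genotypes, narrowly in each, and the log2 fold change was -0.59 ± 0.16 (SE, adjusted p = 0.0122) in the mean of both. Cth, the cystathionine lyase, was at 478, 480.1 and 436 CPM in fed and 932, 494 and 450.3 CPM in fasted Nts+/+ livers, and at 396, 528 and 514 CPM in fed and 669, 1063 and 789 CPM in fasted Nts-/- livers. It rose by 0.81 ± 0.25 (SE, adjusted p = 0.0438) on the log2 scale in Nts-/- livers, without overlap, and did not pass in Nts+/+ livers (0.43 ± 0.25, adjusted p = 0.263), where mouse 265 stood clear of the fed mice and mouse 322 lay among them. The call in Nts-/- livers was lost without mouse 254, 257, 323, 277, 303, 319, 290 or 295 (adjusted p up to 0.168), while the call in the mean of both (0.62 ± 0.18, adjusted p = 0.0175) was kept. Cdo1, the dioxygenase that supplies the substrate of Csad, did not pass in the mean of both (0.25 ± 0.11, adjusted p = 0.0854).

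Glycine is cleaved by a complex whose decarboxylase is encoded by Gldc and whose aminomethyltransferase is encoded by Amt, and these 2 subunits moved apart. Gldc was at 198, 221 and 193 CPM in fed and 459.8, 298 and 228 CPM in fasted Nts+/+ livers, and at 203, 217 and 220.4 CPM in fed and 262, 283 and 306 CPM in fasted Nts-/- livers. Amt was at 59.5, 51.8 and 75.5 CPM in fed and 50.1, 43.6 and 36.1 CPM in fasted Nts+/+ livers, and at 73.7, 86.3 and 62.0 CPM in fed and 38.7, 53.6 and 65.0 CPM in fasted Nts-/- livers. For Gldc the fasted mice were above the fed mice in both genotypes, and for Amt they were below in Nts+/+ livers and overlapped in Nts-/- livers. For Gldc the log2 fold change was 0.68 ± 0.20 (SE, adjusted p = 0.0290) in Nts+/+ and 0.41 ± 0.20 (SE, adjusted p = 0.171) in Nts-/- livers, and 0.55 ± 0.14 (SE, adjusted p = 0.00843) in the mean of both. Without mouse 254, 257, 323, 265 or 282, Gldc did not pass in Nts+/+ livers (adjusted p up to 0.107). For Amt it was -0.51 ± 0.14 (SE, adjusted p = 0.0143) in the mean of both and did not pass in either genotype alone. The counts of Gldc were 2.51 to 4.27 times those of Amt in the fed mice and 4.71 to 9.17 times in the fasted mice, a ratio chosen after its values were seen.

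The branched-chain genes moved little. Of 9, the mean of both genotypes gave 2 that passed, both upwards and both for the complex that commits the keto acids to oxidation. Bckdha, its E1 alpha subunit, was at 213, 243 and 188 CPM in fed and 273, 247 and 239 CPM in fasted Nts+/+ livers, and at 199.9, 167 and 216 CPM in fed and 261, 227 and 288 CPM in fasted Nts-/- livers. Bckdk, the kinase that inactivates the complex, was at 11.4, 11.7 and 12.0 CPM in fed and 17.5, 18.1 and 13.9 CPM in fasted Nts+/+ livers, and at 10.7, 11.9 and 10.9 CPM in fed and 16.8, 12.9 and 12.6 CPM in fasted Nts-/- livers. Thus a catalytic subunit and the kinase that opposes it rose together by small amounts, 0.32 ± 0.10 (SE, adjusted p = 0.0252) for Bckdha and 0.42 ± 0.10 (SE, adjusted p = 0.00666) for Bckdk on the log2 scale. Bckdk also passed in Nts+/+ livers alone (0.50 ± 0.14, adjusted p = 0.0290), but not without mouse 254, 257, 265 or 282 (adjusted p up to 0.123), and Bckdha did not pass without mouse 254, 323, 265, 303 or 295 (adjusted p up to 0.0662). The other subunits of the complex, Bckdhb and Dbt, had log2 fold changes of 0.19 ± 0.10 (adjusted p = 0.171) and -0.12 ± 0.13 (adjusted p = 0.527). For the enzymes further down the routes of leucine, isoleucine and valine (Ivd, Mccc1, Mccc2, Pcca and Pccb), the log2 fold change lay between -0.28 and 0.17 and the lowest adjusted p was 0.130. Pcca overlaps Ggact, whose counts were 93.4% of those of Pcca. The log2 fold change of Ggact in the mean of both genotypes was -0.46 ± 0.10 (adjusted p = 0.00317).

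Of the 4 genes that take histidine to glutamate, only Amdhd1 passed. It encodes the imidazolonepropionase of the third step. Amdhd1 was at 276, 269.8 and 228 CPM in fed and 207, 135 and 131 CPM in fasted Nts+/+ livers, and at 254, 273 and 369 CPM in fed and 166, 251 and 254 CPM in fasted Nts-/- livers. Fasted mice were below fed mice in both genotypes, by little in Nts-/- livers. This gave a log2 fold change of -0.71 ± 0.21 (SE, adjusted p = 0.0357) in Nts+/+ and -0.42 ± 0.21 (SE, adjusted p = 0.201) in Nts-/- livers. The call in Nts+/+ livers was lost without mouse 254, 257, 282 or 322 (adjusted p up to 0.146). The first enzyme, the histidine ammonia lyase Hal (-0.017 ± 0.21, adjusted p = 0.960), the urocanase Uroc1 (-0.24 ± 0.17, adjusted p = 0.296) and the formiminotransferase Ftcd (0.22 ± 0.20, adjusted p = 0.445) did not pass.

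Tyrosine breakdown held 4 of the 6 most abundant genes of the set per kilobase, and none of its 4 enzymes passed. Tat, the aminotransferase at the head of the route and a textbook target of glucocorticoids, was at 1146, 1606 and 877 CPM in fed and 1629, 2196 and 1388 CPM in fasted Nts+/+ livers, and at 1032, 1622 and 1373 CPM in fed and 1891, 1369.9 and 1542 CPM in fasted Nts-/- livers. Fed and fasted mice overlapped in both genotypes. Tat had a log2 fold change of 0.52 ± 0.24 (SE, adjusted p = 0.152) in Nts+/+ and 0.25 ± 0.24 (SE, adjusted p = 0.513) in Nts-/- livers. In the mean of both genotypes, it was 0.39 ± 0.17 (SE, adjusted p = 0.0989) for Tat, 0.35 ± 0.16 (SE, adjusted p = 0.0983) for Hpd, 0.18 ± 0.10 (SE, adjusted p = 0.199) for the homogentisate dioxygenase Hgd and -0.13 ± 0.11 (SE, adjusted p = 0.394) for the fumarylacetoacetase Fah. Hpd in the fasted Nts+/+ mouse 265 stood far above the others, at 3759 CPM beside 2362 and 1792.

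A list of 48 further genes of amino acid breakdown, which are no members of the set, had more that fell than rose. Like the members, these genes were chosen with earlier results of these data known. Of the 45 that could be tested, 3 rose (6.67%, background 8.91%) and 11 fell (24.4%, background 9.19%) in Nts+/+ livers. In Nts-/- livers 4 rose (8.89%, background 7.70%) and 11 fell (24.4%, background 9.14%). For the mean of both, 4 rose (8.89%, background 16.0%) and 16 fell (35.6%, background 16.8%), with a median log2 fold change of -0.15. Beside this, the 44 members had 11 that rose and 9 that fell, and no test of the difference between the lists was made. Those with the smallest p included Gcat (-1.33 ± 0.11, adjusted p = 1.84e-06), which completes threonine breakdown to glycine, Mmab (-1.64 ± 0.18, adjusted p = 2.92e-05), which makes the cobalamin cofactor of methylmalonyl-CoA mutase, Kyat1 (-1.52 ± 0.17, adjusted p = 2.94e-05) and Sqrdl (-0.95 ± 0.12, adjusted p = 5.95e-05), which oxidises sulfide. These 4 genes all fell.

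The fasted Nts+/+ mice were the most uneven of the 4 groups. Mouse 265 was the highest of its group of 3 for 39 of the 44 genes and mouse 322 the lowest for 37. The 44 genes summed to 27230 CPM in mouse 265, 21157 in 282 and 16846 in 322, the last of which lay within the range of the fed Nts+/+ mice (16494 to 18119). In Nts-/- mice the sum was 16398 to 19269 when fed and 22017 to 23469.8 when fasted, without overlap. As a share of all counts, with no TMM scaling, the 3 fasted Nts+/+ mice had 2.49%, 2.06% and 1.72%, in the same order. The SD of the summed level was 5217 CPM in this group and between 787 and 1480.4 CPM in the other 3 (n = 3 each).

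Mouse 322 was nearest to the fed mean for 13 of the 20 genes that passed in the mean of both genotypes, and mouse 265 for the other 7. Mouse 322 was at a fasted level for Cyp4a14, Srebf1, Acly and Cpt1a, which lie outside the set. These are among the 5 fasting genes with the smallest p in these same mice, 322 included. Their separation was therefore largely fixed by that choice, and whether mouse 322 fasted like the others was not tested. Cyp4a14, a fatty acid hydroxylase, was at 917, 782 and 1827 CPM in the fed and 11175, 11413 and 11672 CPM in the fasted Nts+/+ mice. Srebf1, the regulator of lipid synthesis, was at 194, 319 and 129 CPM in the fed and 37.9, 30.1 and 18.2 CPM in the fasted mice, with mouse 322 the lowest. Acly and Cpt1a likewise separated mouse 322 from all fed Nts+/+ mice. The summed hepatocyte markers ran in the same order as the set over these 3 mice, at 148394, 140988 and 125181 CPM, and their part in it was not tested. Without mouse 322, 12 genes passed in Nts+/+ livers and without mouse 265, 11, beside 10 with both.

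**Figure D4:**
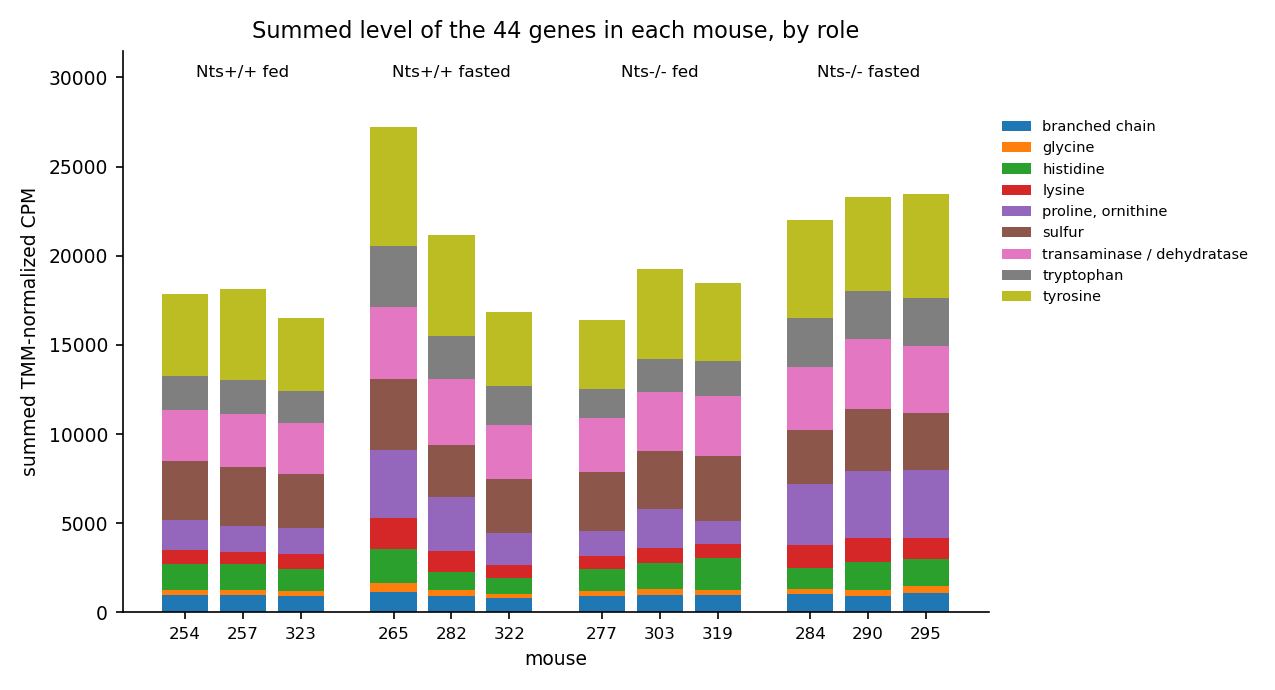
Sum of the levels of the 44 genes in each mouse (vertical axis, TMM-normalized CPM, from 0), split by role, with the mice grouped by genotype label and feeding. The fasted Nts-/- mice (22017 to 23469.8) stand above all fed mice, while the fasted Nts+/+ mice run from 27230 down to 16846.

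By role, the sum over the 4 proline and ornithine genes was 1422 to 1684 CPM in fed and 1816 to 3835 CPM in fasted Nts+/+ mice, and 1296 to 2189.8 and 3403 to 3813 CPM in Nts-/- mice. The 6 tryptophan genes summed to 1821 to 1932 and 2178 to 3397 CPM, and to 1600.0 to 1957 and 2665 to 2738 CPM. In both roles the fasted mice were above the fed mice. Oat and Tdo2 are the most abundant genes of these roles. The 9 transaminase and dehydratase genes were also higher without overlap, at 2824 to 2948 against 3054 to 4041 CPM in Nts+/+ and 3025 to 3387 against 3521 to 3913 CPM in Nts-/- mice. The sums of the branched-chain, histidine, sulfur and glycine genes overlapped between fed and fasted mice in both genotypes. Those of the tyrosine and of the lysine genes overlapped in Nts+/+ mice. In fed and fasted Nts-/- mice they did not, at 3895 to 5071 against 5255 to 5850 CPM for tyrosine and 698 to 844 against 1210 to 1325 CPM for lysine. Sums add genes of very different abundance and are given without a test.

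The genotype label made no difference that passed the test for any of the 44 genes. In fed livers 0 of 44 passed (lowest adjusted p = 0.780), and 0% of all tested genes did. In fasted livers 0 of 44 passed (lowest adjusted p = 0.917, background 0%). The fasting response differed between genotypes for 0 of 44 (lowest adjusted p = 0.897, background 0%). At an unadjusted p under 0.05 there were 0, 3 and 1 of the 44 in these comparisons, where 6.34%, 4.96% and 4.80% of all tested genes had such a p, and the Wald test of DESeq2 called 0 of the 44 in each of them, beside 12, 4 and 3 of all tested genes. How large a difference could still be present is given by the 95% intervals. In fed livers, 39 of the 44 intervals lay within a log2 difference of 1 in either direction, in fasted livers 38 and for the difference of responses 31. The median half-width of an interval was 0.43, 0.43 and 0.61 on the log2 scale. The widest reach was that of Csad, from -0.64 to 1.78 in fed livers and from -1.67 to 0.75 in fasted livers.

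In fed livers the 3 members with the smallest p were Gpt2, Pccb and Sds. Gpt2 was higher in the libraries labelled Nts-/- by 0.48 (95% interval -0.071 to 1.03, adjusted p = 0.780) and by 0.074 without mouse 303. Pccb, a subunit of the propionyl-CoA carboxylase, was at 171, 194 and 184 CPM in Nts+/+ and 142, 160.2 and 157 CPM in Nts-/- mice, a difference of -0.26 (95% interval -0.56 to 0.046, adjusted p = 0.791) without overlap. Sds differed by 0.68 (95% interval -0.34 to 1.69, adjusted p = 0.824), and by 0.088 without mouse 319. None of the 3 passed.

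Fasted livers gave Bckdhb, Amdhd1 and Hgd as the members with the smallest p. Bckdhb, the E1 beta subunit of the branched-chain complex, was at 72.1, 57.9 and 58.3 CPM in fed and 69.7, 65.7 and 50.5 CPM in fasted Nts+/+ livers, and at 54.7, 64.5 and 60.3 CPM in fed and 88.6, 74.1 and 74.0 CPM in fasted Nts-/- livers. All 3 fasted Nts-/- mice were above the fasted Nts+/+ mice, with a difference of 0.35 (95% interval 0.039 to 0.66, adjusted p = 0.917). Amdhd1 differed by 0.50 (95% interval 0.043 to 0.96, adjusted p = 0.917) and overlapped between the genotypes. Hgd was at 654, 617 and 681 CPM in fed and 687, 620.3 and 567 CPM in fasted Nts+/+ livers, and at 541, 606 and 597 CPM in fed and 637, 813 and 868 CPM in fasted Nts-/- livers, which gave 0.31 (95% interval 0.0023 to 0.61, adjusted p = 0.917) in fasted livers, also with overlap.

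Hgd and Bckdhb also had the smallest p for the difference in fasting response, followed by Gcdh. In each of the 3, the fasted over fed change was near 0 in Nts+/+ livers and between 0.38 and 0.41 on the log2 scale in Nts-/- livers, where it did not pass either. For Hgd it was -0.059 ± 0.14 (SE, adjusted p = 0.811) and 0.41 ± 0.14 (SE, adjusted p = 0.0625), and the difference was 0.47 (95% interval 0.039 to 0.90, adjusted p = 0.897). Bckdhb had -0.019 ± 0.14 (SE, adjusted p = 0.943) and 0.40 ± 0.14 (SE, adjusted p = 0.0736), with a difference of 0.42 (95% interval -0.019 to 0.86, adjusted p = 0.897). Gcdh was at 477, 451 and 513 CPM in fed and 601, 439 and 374 CPM in fasted Nts+/+ livers, and at 399.8, 484 and 416 CPM in fed and 569.8, 496 and 625 CPM in fasted Nts-/- livers, and its difference was 0.41 (95% interval -0.11 to 0.92, adjusted p = 0.897). In all 3 genes mouse 322 had the lowest value of the fasted Nts+/+ mice, and none of the differences passed. Responses of Tdo2, Haao, Acmsd, Oat, Got1, Gpt2 and Aass, the 7 genes that passed in both genotypes, differed between the genotypes by -0.37 to 0.38 on the log2 scale.

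**Figure D5:**
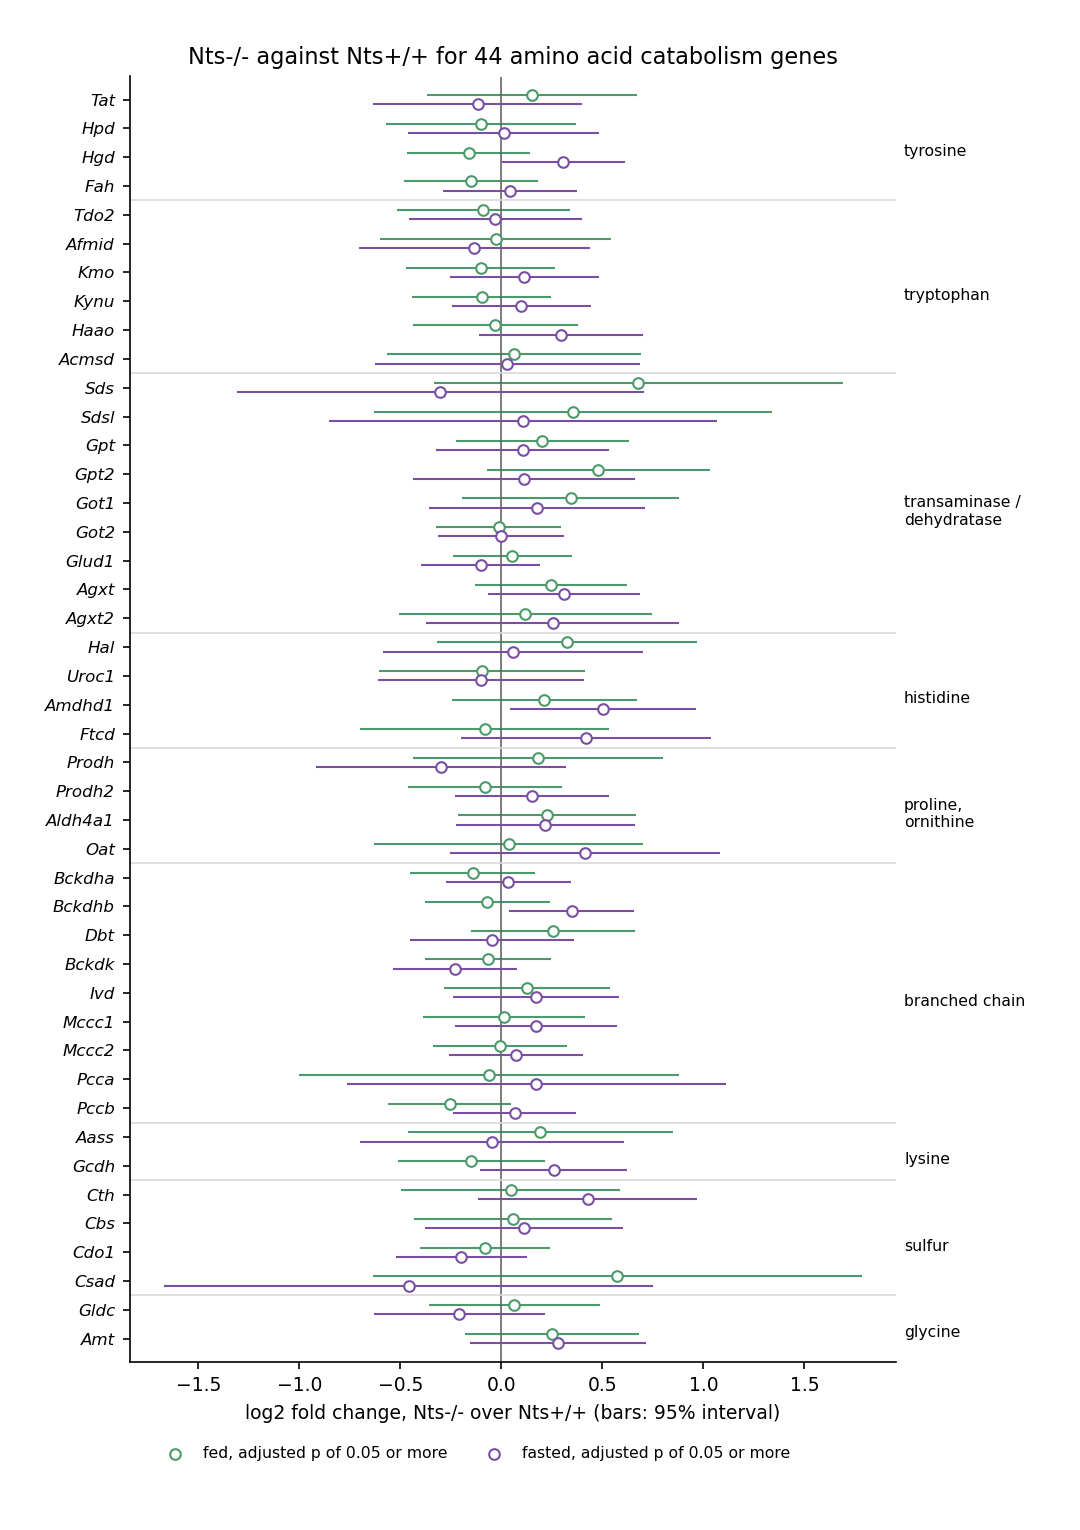
Log2 fold change of Nts-/- over Nts+/+ livers as labelled (horizontal axis) for each of the 44 genes, ordered by role, in fed (green) and fasted (purple) mice, with 95% intervals from edgeR. All points are open, since no gene had an adjusted p under 0.05, and the widest intervals are those of Csad, Sds, Sdsl and Pcca.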

How the data were processed

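RNA sequencing of liver covered 12 mice, with 3 for every combination of genotype label and feeding state. The authors deposited a single table in which each value is an expected count, an estimate of the reads of a gene that can be fractional and is not scaled for depth. The submitters' processing notes name Trimmomatic, RSEM and the GRCm38 build, while the aligner and the strand setting of the counting are not given in the sources used here. Of the deposited values 7.94% were not whole, and expected counts were rounded before testing. Genes without a symbol (1220) entered the fit and are not named. All libraries share 1 batch label, so no comparison within batches could be made, and no column belonged to samples outside the series (0 columns).

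Counts were analysed in R 4.3.3 with edgeR 4.0.16 (limma 3.58.1): filterByExpr by group, TMM scaling, a group-means model of all 12 mice and robust quasi-likelihood tests with Benjamini-Hochberg adjustment over all 13812 tested genes, called at an adjusted p under 0.05. Standard errors are the log2 fold change divided by the square root of F. The common biological coefficient of variation was 0.202. Total counts were 21999647 to 45273069 per mouse, and 3 counts correspond to 0.0663 to 0.136 CPM, a floor that covers counting error only. The labels give each library a mouse number of its own, replicates correlated with a Spearman rho of 0.976 to 0.989 and 0 pairs were identical. The script was tested on simulated counts with known changes.

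The 44 members and all gene lists (further amino acid genes, fasting genes, and markers of cell types and liver zones) were chosen with earlier results of these data known, so no test was made over a list. Values in every mouse are given for members that passed a fasting contrast, for the 3 with the smallest p in each genotype contrast and in the difference of responses, and for paralog pairs. Outside this rule, Tat is given in every mouse and Hpd in the fasted Nts+/+ mice, although neither passed. Outside the set, Nts is named together with the top 5 by p of the further amino acid genes and of the fasting genes, except for items not reported here, and others are said to have been picked after their values were seen. Levels per kilobase used canonical transcript lengths of a GENCODE annotation. Promoters were read from RefSeq tables of GRCm38.p6, in which 37 of 44 members matched. Alternatives were RLE and upper-quartile scaling, the Wald test of DESeq2 1.42.0, no filter, a minimum of 10 counts in each of the mice, a fit of the compared groups alone, a further threshold of 1 on the absolute log2 fold change, and leaving out each mouse.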

Additional observations from a re-analysis of the deposited data

Results flagged for a closer look

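Counts on Nts, the gene that the genotype labels name, lay outside the comparisons of the enzymes. The libraries labelled Nts-/- held 135 counts on it in all, and those labelled Nts+/+ held 0, which is a signal above that of the control libraries. The gene thus had counts only in libraries labelled as its knockouts. The labels give genotype and not the level of Nts in liver, and whether they are correct was not tested. Where on the gene these reads lie was not analysed here.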

How the results depend on the processing

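No member changed direction under any alternative in a fasting contrast in which it had passed. Values that had not passed could change sign when 1 mouse was left out, as for Sds in the mean of both genotypes (0.13, and -0.15 without mouse 265) and Csad between the genotypes in fasted livers (-0.81 without mouse 265 and 0.66 without mouse 322). The number of the 44 that passed in Nts+/+ livers (10) was 7 to 12 when 1 mouse was left out, and that in Nts-/- livers (11) was 4 to 13, with the lowest value without mouse 277 or mouse 290. For the mean of both genotypes (20) it was 18 to 23. With a further threshold of 1 on the absolute log2 fold change, 6 passed in Nts-/- livers and 8 in the mean. The remaining alternatives kept these counts within 1.5 times. Genotype and the difference of responses gave 0 of 44 under each alternative that was run. Leaving out a mouse leaves 2 in its group. Over all genes, DESeq2 called 12 for genotype in fed livers, 4 in fasted livers and 3 for the difference of responses, where edgeR called 0. Without mouse 254, 257 or 282, the genes that passed in Nts+/+ livers fell from 2501 to 1326, 1596 and 1224, and without 277, 284 or 290 those in Nts-/- livers fell from 2326 to 1358, 1523 and 1365. With the threshold on fold change there were 911, 915 and, for the mean of both genotypes, 1082 in place of 4524. The cause of these shifts was not tested beyond the smaller number of mice.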
